A study of Mus musculus with 22 samples.

Results

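A set of 40 skeletal muscle genes was followed through normal mouse mammary gland and Neu-induced mammary tumours. These genes encode the proteins of the sarcomere, the contractile unit of striated muscle, and the enzymes that fuel it. The genes were chosen by name, with earlier results of these data known. Every probe set on the arrays with one of these symbols as its only gene symbol was taken. Of 40 listed genes, 38 had such a probe set, with 66 probe sets among the 36701 on the arrays, and the series held 15965 genes with a probe set of 1 symbol. Mybpc2 and Neb had none and were not analysed here. Each gene is read by its brightest probe set by mean log2 signal, on chips A, B and C where wild-type tumours are counted against normal gland, and on chips A and B elsewhere, since only those held all samples. For Ckm, Mylpf and Tnni1 the brightest probe set lies on chip C, and the values given first are those of chip A.

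A transgene of Her2/Neu, the receptor ErbB2, had induced the tumours, in mice labelled PEA3-null (2 RNA samples) or PEA3 wild type (3 RNA samples). PEA3, the product of Etv4, is an ETS-type transcription factor. Normal mammary glands came from FVB mice (3 RNA samples). The labels give neither the promoter of the transgene, nor the strain of the tumour mice, nor any age. They describe the tumour RNA as pooled, title the normal samples as pools, and give all groups a sort for the surface marker Sca-1. Whether that sort was applied to these samples could not be settled. Within a group, the submitters gave every array the same sample identifier, so the samples may be repeat preparations and p-values measure only the spread between them. RNA was read on 22 Affymetrix arrays of 3 chip types, on which a set of short probes reads each transcript.

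In the sarcomere, thick filaments of myosin pull on thin filaments of actin that are anchored at the Z-disc. Calcium released from internal stores binds troponin C on the thin filament and switches contraction on. Muscle fibres are fast or slow according to the isoforms of myosin, myosin light chain and troponin they carry, each encoded by a gene of its own. In the mammary gland the actin and myosin of the milk-ejecting myoepithelial cells are of the smooth muscle type, and skeletal muscle lies next to the fat pad, beneath the skin and in the body wall.

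The promoters shown here, 1 from the thin filament, 1 fast and 1 slow gene of the thick filament and 1 muscle enzyme, show the sequence from which such genes are read. Each is the 250 bases before the RefSeq start of the gene on build GRCm38.p6, written 5′ to 3′ in the direction of the gene. Capitals mark matches on either strand to CAGCTG, to TATAAA, to the MEF2 motif or to the CArG box, and a TATAAA can overlap a MEF2 match. CAGCTG is a form of the CANNTG sequence bound by MyoD-type factors, MEF2 factors bind the MEF2 motif, and serum response factor binds the CArG box.
Acta1: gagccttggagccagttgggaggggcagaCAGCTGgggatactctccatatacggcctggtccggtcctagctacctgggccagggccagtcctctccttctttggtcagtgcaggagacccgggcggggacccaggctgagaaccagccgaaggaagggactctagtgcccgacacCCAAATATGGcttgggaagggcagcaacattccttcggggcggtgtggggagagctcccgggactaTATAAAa
Myh4: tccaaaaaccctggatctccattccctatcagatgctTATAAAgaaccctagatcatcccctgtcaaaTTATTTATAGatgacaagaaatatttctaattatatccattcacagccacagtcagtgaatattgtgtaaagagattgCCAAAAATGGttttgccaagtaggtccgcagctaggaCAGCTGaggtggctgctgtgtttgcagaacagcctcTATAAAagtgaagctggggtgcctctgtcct
Myl3: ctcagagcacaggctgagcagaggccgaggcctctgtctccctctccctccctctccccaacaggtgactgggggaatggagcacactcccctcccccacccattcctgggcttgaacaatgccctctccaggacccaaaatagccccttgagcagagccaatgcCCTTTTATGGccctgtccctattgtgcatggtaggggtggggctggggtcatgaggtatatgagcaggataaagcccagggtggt
Pgam2: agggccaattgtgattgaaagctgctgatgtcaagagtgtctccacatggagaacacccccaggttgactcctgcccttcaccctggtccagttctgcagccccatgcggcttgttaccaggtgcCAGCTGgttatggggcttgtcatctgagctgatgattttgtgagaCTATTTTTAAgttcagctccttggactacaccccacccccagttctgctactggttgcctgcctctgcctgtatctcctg

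The skeletal actin gene Acta1 (chr8:123894776-123895025, minus strand) held CAGCTG, a CArG box and TATAAA. The fast myosin gene Myh4 (chr11:67237562-67237811, plus strand) held all 4 kinds of match. Myl3 (chr9:110763428-110763677, plus strand), a light chain of slow and heart muscle, held a CArG box. Pgam2 (chr11:5803797-5804046, minus strand), the muscle phosphoglycerate mutase, held CAGCTG and a MEF2 motif. RefSeq windows were available for 31 member genes, 38 windows in all, of which some come from starts of the same gene. CAGCTG was present in 47.4% of these windows and in 13% of 32851 windows of all genes. The CArG box was in 13.2% against 1.47%, the MEF2 motif in 10.5% against 2.92%, and TATAAA in 18.4% against 12.4%. The wider CANNTG was in 86.8% against 66.2%. Each promoter shown holds a CArG box or a MEF2 motif, so the promoters shown are not typical of the member windows. These matches describe letters in the windows and are not measured binding sites.

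Each array was scaled to a common mean of 500, and all levels below are scaled signals. A signal of 150 was taken as the level under which a value has no order. Between 6939 and 8430 probe sets per array reached it. A probe set was tested if at least 2 arrays of its chip type reached 150, as did 56 of the 66 probe sets and 37 of the 38 genes. The fast myosin gene Myh2 stayed out, reading 17.15 to 79.7 in all 8 samples. Of the 37 genes, 17 had fewer than 2 tumour samples at or above 150 and so entered through the normal glands, where they are high. On each chip type normal glands and tumours were scanned on separate days, and tissue and day of scanning cannot be told apart. The instrument record notes an aborted wash for the chip A arrays of normal glands 1 and 2. On chip B the PEA3-null samples were scanned on other days than the wild-type tumours and on another chip lot, so genotype, day and lot cannot be told apart there, while on chip A all tumours share a scan day. GAPDH control probes gave a 3′ to 5′ ratio of 2.58 to 6.08 on normal and 0.91 to 1.25 on tumour arrays, and the part of this in the differences below was not tested.

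Muscle genes gave strong signals in normal gland and far weaker ones in tumours. With values under 150 set to 150, 33 of 37 genes read higher in all 3 normal glands than in all 5 tumour samples, against 20% of 11743 genes on chips A and B. In PEA3 wild-type tumours 31 of 37 genes were lower than in normal gland and 0 were higher (limma, adjusted p under 0.05), where 13.8% of all genes were lower and 13% higher. In PEA3-null tumours 33 of 37 were lower and 0 higher, where 15% of all genes were lower and 13.2% higher. The median log2 difference from normal gland was -4.72 in wild-type and -4.36 in PEA3-null tumours, against 0.00 and 0.02 over all genes. Both comparisons use the same normal glands, but their counts and medians are not alike. Ckm, Mylpf and Tnni1 are read on chip C for wild-type tumours and on chip A for PEA3-null tumours. With chips A and B only, 32 of 37 genes were lower in wild-type tumours. The counts of lower members include the genes that entered the test through the normal glands, for which a fall was nearly fixed in advance. The list was also chosen with earlier results of these data known. In RNA from many cells together, fewer muscle cells and less RNA per muscle cell cannot be told apart. Because tumour signals lie near background, a log2 difference also reflects how bright a probe set was in normal gland. A fold written as "at least" therefore sets the lowest normal gland against the highest tumour sample, or against 150 where no tumour reached it.

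**Figure D1:**
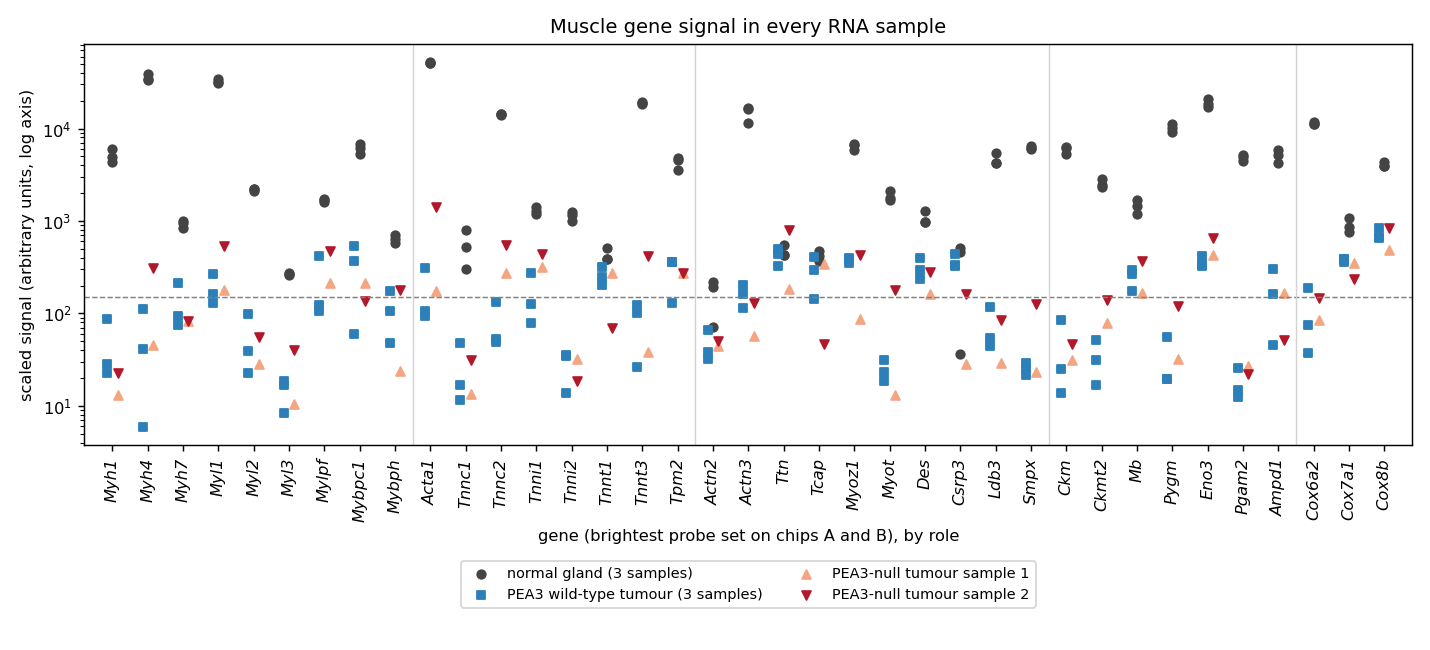
Scaled signal (log axis) of 37 muscle genes in each of 8 RNA samples, by gene and ordered by role (thick filament, thin filament, Z-disc, enzymes, cytochrome c oxidase), each gene read by its brightest probe set on chips A and B. Points are samples and the dashed line is 150. For 33 genes the 3 normal glands lie above 150 and above all 5 tumour samples, and Actn2, Csrp3, Tcap and Ttn are the exceptions.

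All 9 tested genes of the thick filament fell in both tumour genotypes. Myh4, the myosin heavy chain of the fastest fibres, read 33640, 34050 and 38840 in normal glands 1, 2 and 3. It read 111.8, 40.86 and 5.88 in wild-type tumours 1, 2 and 3, and 44.88 and 305.9 in PEA3-null tumours 1 and 2. Of the tumours, only the second PEA3-null sample exceeded 150, and the fall was at least 110-fold (log2 -8.92, SE 0.51, limma adjusted p = 3.22e-07 in wild-type tumours and log2 -7.78, SE 0.58, adjusted p = 2.65e-06 in PEA3-null tumours). A dimmer Myh4 probe set read 160.5 to 265.2 in normal glands and 449.3 in PEA3-null tumour 2, and did not pass in either comparison (log2 -1.19 and -0.20). Myh1, a fast heavy chain whose gene lies between Myh2 and Myh4 on chromosome 11, read 4388, 4909 and 5975 in normal glands. It read 87.88, 28.54 and 22.41 in wild-type tumours and 13.12 and 22.62 in PEA3-null tumours, all under 150, so the fall was at least 29.3-fold. Myh1, Myh2 and Myh4 are closely related genes, and the Myh1 and Myh4 probe sets could share signal. The Myh2 probe set stayed under 150 in the normal glands, where those of Myh1 and Myh4 were bright.

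Myl1, the alkali light chain of fast myosin, read 33990, 31890 and 30870 in normal glands. Its tumour values were 269.8, 160.7 and 129.9 in the wild type and 178.8 and 528.8 in PEA3-null tumours. All but 1 of 5 tumour samples stayed above 150, and the fall was at least 58.4-fold. Mylpf, the regulatory light chain of fast fibres, read 1607 to 1723 in normal glands and 104.7, 123.2, 415.8, 213.3 and 478.1 across the tumours in the same order. Its brighter probe set on chip C read 4939 to 5261 in normal glands, 223.0 and 118.6 in wild-type tumours 1 and 2 and 154.1 in PEA3-null tumour 1. Mybpc1, a myosin-binding protein of skeletal muscle, read 5306, 6152 and 6869 in normal glands, 365.4, 533.6 and 59.28 in wild-type tumours and 215.6 and 136.1 in PEA3-null tumours. The tumour genotypes overlapped for Mylpf and Mybpc1, and all normal glands lay above them. Mybph, another myosin-binding protein, was lower by 2.35 (log2, limma adjusted p = 0.00502) in wild-type tumours.

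The slow members of the thick filament fell too, from lower signals in normal gland. Myl2, the regulatory light chain of slow and heart muscle, read 2082, 2229 and 2210 in normal glands, then 98.7, 22.62 and 39.31 in wild-type tumours and 28.6 and 55.04 in PEA3-null tumours, a fall of at least 13.9-fold. Myh7, the slow heavy chain that the heart shares, read 1010, 960.4 and 836.3 in normal glands. In wild-type tumours it read 93.0, 74.72 and 211.1, and in PEA3-null tumours 82.38 and 82.98, so that 1 tumour sample exceeded 150. Myl3 read 265.8, 259.1 and 274.4 in normal glands, then 8.328, 18.44 and 16.96 in wild-type tumours and 10.52 and 40.45 in PEA3-null tumours. Its fall of at least 1.73-fold is bounded by the dim normal signal. A second Myh7 probe set, which read 89.69 to 349.1 in normal glands, did not pass in wild-type tumours (log2 0.03, SE 0.45). Both Myh7 probe sets are of a kind that can read related transcripts too.

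Of the thin filament, 6 of 8 tested genes fell in wild-type tumours and 8 of 8 in PEA3-null tumours. Acta1, the actin of skeletal muscle, read 52140, 50710 and 50570 in normal glands. It read 105.9, 92.88 and 306.4 in wild-type tumours and 174.7 and 1405 in PEA3-null tumours. The fall was at least 36-fold in the sample where it was smallest, PEA3-null tumour 2. Tnnt3, fast troponin T, read 19580, 18730 and 18570 in normal glands, 26.3, 100.6 and 124.2 in wild-type tumours, and 38.15 and 419.9 in PEA3-null tumours. Tnnc2, fast troponin C, read 14020, 14350 and 14210 in normal glands and at most 544.0 in tumours, at least 25.8-fold lower. Tpm2, beta-tropomyosin, read 3522, 4766 and 4618 in normal glands, then 361.1, 130.7 and 363.7 in wild-type tumours and 272.8 and 272.3 in PEA3-null tumours. Tnni2, the fast inhibitory troponin, read 1009, 1161 and 1242 in normal glands, then 35.14, 34.44 and 13.9 in wild-type tumours and 32.07 and 18.38 in PEA3-null tumours, at least 6.72-fold lower. Its neighbour Tnnt3 lies on the same stretch of chromosome 7, with 1 protein-coding gene between them.

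Slow troponins behaved less evenly. Tnnc1, the troponin C of slow and heart muscle, read 298.9, 522.8 and 787.8 in normal glands, then 48.02, 11.59 and 16.78 in wild-type tumours and 13.4 and 31.13 in PEA3-null tumours. Tnni1, slow troponin I, read 1286, 1175 and 1432 in normal glands, 276.4, 79.22 and 125.5 in wild-type tumours and 317.9 and 442.5 in PEA3-null tumours on chip A. There it fell by 2.92 (log2, SE 0.34, limma adjusted p = 7.04e-05) in wild-type tumours. Its brighter probe set, on chip C, read 1319 to 1813 in normal glands and 904.7 and 476.1 in wild-type tumours, and missed the threshold (log2 -1.17, SE 0.37, limma adjusted p = 0.0512). The chip C probe set is the one counted above, and with chips A and B only, 32 of 37 members were lower. Another Tnni1 probe set on chip C had the opposite sign (log2 0.50) and did not pass.

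Tnnt1, slow troponin T, read 382.9, 383.6 and 506.9 in normal glands, 316.0, 245.8 and 201.4 in wild-type tumours and 275.0 and 70.05 in PEA3-null tumours. It missed the threshold in wild-type tumours (log2 -0.68, limma adjusted p = 0.266) and passed in PEA3-null tumours (log2 -1.36, limma adjusted p = 0.0402). That pass was lost without PEA3-null tumour 2 (log2 -0.56, limma adjusted p = 0.299), without normal gland 1, 2 or 3 (0.0832, 0.0855 and 0.13) and without wild-type tumour 2 (0.0501). Tnnt1 passed in 10 of 23 alternatives in all. The other Tnnt1 probe set read 1226 to 1608 in normal glands and between 27.64 and 75.7 in the tumours, and fell by 4.17 and 4.06 (limma adjusted p = 3.38e-06 and 1.15e-05). The probe set taken as brightest was chosen on the mean over all samples, tumours included.

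At the Z-disc, 6 of 10 genes fell in both genotypes. Actn3, the alpha-actinin of fast fibres, read 11580, 16550 and 16070 in normal glands, 202.2, 160.2 and 114.4 in wild-type tumours and 56.81 and 128.9 in PEA3-null tumours, at least 57.3-fold lower. A dimmer Actn3 probe set read 1079 to 1576 in normal glands and 195.7 to 386.7 in the tumours, at least 2.79-fold lower (log2 -1.99 and -2.48). Smpx, a small protein of striated muscle, read 6073, 6482 and 6204 in normal glands, then 28.98, 21.48 and 25.37 in wild-type tumours and 23.13 and 127 in PEA3-null tumours. Myoz1, a calcineurin-binding protein of fast fibres, read 6691, 6813 and 5788 in normal glands, 390.3, 393.6 and 351.0 in wild-type tumours and 86.7 and 427.7 in PEA3-null tumours. Ldb3, which binds alpha-actinin, read 4232, 5373 and 4277 in normal glands, then 117.8, 44 and 54.7 in wild-type tumours and 28.83 and 85.65 in PEA3-null tumours. Myot, myotilin, read 1674 to 2082 in normal glands, at most 31.24 in wild-type tumours, and 13.19 and 177.5 in PEA3-null tumours. By the brightest probe set of these 5 genes no tumour sample came near a normal gland. Des, the intermediate filament desmin, had a log2 difference of -1.72 (limma adjusted p = 0.000623) in wild-type tumours, where it still read 232.6 to 392.3.

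The other 4 Z-disc genes, Ttn, Tcap, Actn2 and Csrp3, did not pass in either genotype. Ttn, the giant spring protein titin, read 546.3, 428.0 and 430.2 in normal glands, 441.5, 501.4 and 328.9 in wild-type tumours and 185.4 and 798.8 in PEA3-null tumours, so the groups overlapped. A dimmer Ttn probe set had the opposite sign (log2 1.07, limma adjusted p = 0.177). Tcap, which caps titin, read 366.1, 476.3 and 414.4 in normal glands, 405.8, 144.1 and 293.7 in wild-type tumours and 344.3 and 46.59 in PEA3-null tumours. Without PEA3-null tumour 1, Tcap passed (log2 -2.51, limma adjusted p = 0.00559). Actn2, an alpha-actinin of heart and skeletal muscle, read 215.9, 70.94 and 192.9 in normal glands, then 38.04, 32.19 and 66.56 in wild-type tumours and 44.24 and 50.16 in PEA3-null tumours.

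Csrp3, a muscle LIM protein, read 456.1, 504.5 and 36.44 in normal glands, 337.1, 442.9 and 321.7 in wild-type tumours and 28.59 and 163.3 in PEA3-null tumours by its brightest probe set. Normal gland 3 stood far under the other normal glands. Without that gland Csrp3 passed in PEA3-null tumours (log2 -2.23, limma adjusted p = 0.0306). The other Csrp3 probe set, on chip A, read 437.8 to 854.2 in normal glands and between 34.58 and 65.35 in the tumours, and fell by 2.87 and 3.30 (limma adjusted p = 0.000134 and 0.000118).

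All 7 enzyme and oxygen-store genes fell in both genotypes. Eno3, muscle enolase, read 18530, 20980 and 17250 in normal glands and stayed above 150 in every tumour, at 421.3, 345.8 and 328.1 in the wild type and 422.6 and 647.1 in PEA3-null tumours. It was at least 26.7-fold lower in tumours. Pygm, which releases glucose units from muscle glycogen, read 1.017e+04, 1.118e+04 and 9280 in normal glands, then 55.95, 19.61 and 19.32 in wild-type tumours and 31.8 and 120.9 in PEA3-null tumours, at least 61.9-fold lower. Ckm, which regenerates ATP from creatine phosphate, read 5319, 6093 and 6324 in normal glands, then 13.67, 83.87 and 25.04 in wild-type tumours and 30.92 and 46.12 in PEA3-null tumours. On chip C a brighter Ckm probe set read 19420 to 30440 in normal glands, 401.5 and 409.7 in wild-type tumours 1 and 2 and 569.7 in PEA3-null tumour 1. Another 2 Ckm probe sets did not pass in wild-type tumours, at log2 0.94 on chip A (limma adjusted p = 0.321) and log2 -0.28 on chip C. The latter read 718.7 to 1254 in normal glands, 704.4 and 1019 in wild-type tumours 1 and 2 and 1899 in PEA3-null tumour 1.

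Pgam2, whose promoter is shown above, read 4469, 5153 and 4911 in normal glands, then 25.59, 12.38 and 14.81 in wild-type tumours and 27.19 and 21.88 in PEA3-null tumours. Ampd1, the AMP deaminase of skeletal muscle, read 4209, 5828 and 5161 in normal glands, 45.54, 163.9 and 305.6 in wild-type tumours and 166.1 and 51.45 in PEA3-null tumours. Ckmt2, the mitochondrial creatine kinase of striated muscle, read 2340 to 2822 in normal glands and stayed under 150 in every tumour by this probe set. A second Ckmt2 probe set read 427.0 to 522.9 in normal glands and up to 200.8 in wild-type tumours, and 226.8 and 274.3 in PEA3-null tumours, where it did not pass (log2 -0.89, limma adjusted p = 0.305). Mb, the oxygen store myoglobin, fell by 2.44 and 2.37 (log2, limma adjusted p = 0.000104 and 0.000298), and its tumour signals of 167.3 to 367.9 were all above 150.

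The 3 subunits of cytochrome c oxidase that replace the common isoforms in heart and skeletal muscle also fell. Cox6a2 read 11130, 11690 and 11200 in normal glands, 37.2, 74.4 and 187.3 in wild-type tumours and 84.17 and 146.5 in PEA3-null tumours, at least 59.5-fold lower. Cox8b read 4369, 3930 and 3899 in normal glands, 676.9, 650.1 and 829.5 in wild-type tumours and 487.2 and 837.5 in PEA3-null tumours, at least 4.66-fold lower. Cox7a1 fell the least, from 1066, 766.4 and 849.5 in normal glands to 363.6, 383.0 and 390.8 in wild-type tumours and 350.3 and 235.5 in PEA3-null tumours. Cox7a1 and Cox8b are also markers of brown fat, and the part of brown fat in their values was not tested. Of the common isoforms, Cox6a1 and Cox7a2 were tested and did not pass in either genotype, with log2 differences of -0.07 for Cox6a1 and -0.07 for Cox7a2 in wild-type tumours, and -0.21 and -0.03 in PEA3-null tumours.

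**Figure D2:**
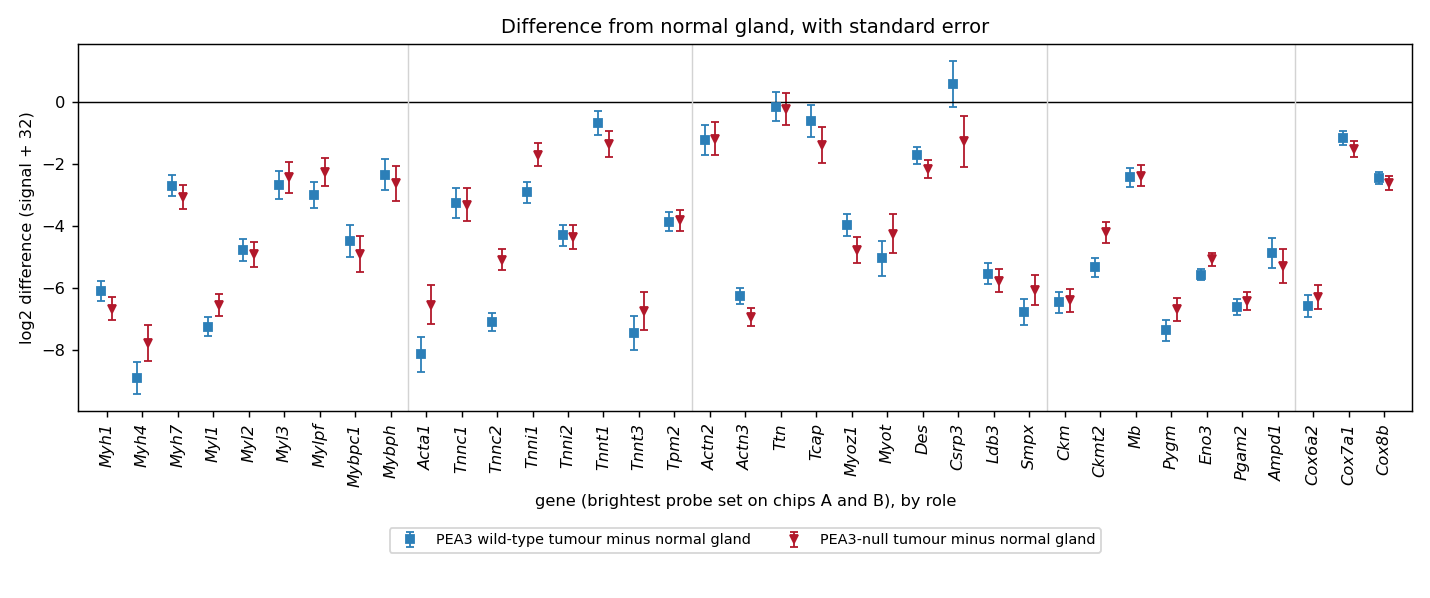
Log2 difference from normal gland (vertical axis) for 37 muscle genes in order of role, each read by its brightest probe set on chips A and B; squares are PEA3 wild-type tumours, triangles PEA3-null tumours, and bars are standard errors from the limma fit. Nearly all values of both genotypes lie below 0, and the sign of Csrp3 differs between them.

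Fast and slow isoforms were then set against each other in every sample. The mean log2 signal of 8 fast genes was 13.06, 13.15 and 13.22 in normal glands 1, 2 and 3, and that of 6 slow genes 9.45, 9.56 and 9.74. Probe sets of different genes differ in brightness, so only changes of the gap between samples are read. The gap of fast over slow was 3.61, 3.60 and 3.48 in normal glands, and -0.11, 0.33 and 0.07 in wild-type tumours. It was 0.05 in PEA3-null tumour 1 and 1.07 in PEA3-null tumour 2. Normal glands had a mean gap of 3.56 ± 0.07 (SD, n = 3). Wild-type tumours averaged 0.10 ± 0.22 (SD, n = 3), and the mean of the PEA3-null samples was 0.56 ± 0.72 (SD, n = 2). PEA3-null tumour 2 lay above all other tumour samples and below all normal glands.

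The fast genes, which were brighter in normal gland, had larger log2 differences than the slow ones. Medians were -6.69 against -2.70 in wild-type and -6.62 against -2.75 in PEA3-null tumours. All 8 fast genes fell in both genotypes, and of 6 slow genes 4 fell in wild-type and 6 in PEA3-null tumours. These slow counts are not alike, since Tnni1 is read on chip C in the first and on chip A in the second, and on chip A it fell in both. The lower signals of the slow genes in normal gland limit how far they can fall before they reach background. Slow means were 6.42 to 7.06 in the tumours, and fast means 6.75 to 6.95 in wild-type tumours, 6.78 in PEA3-null tumour 1 and 7.91 in PEA3-null tumour 2. Only 6 of the 8 fast and 3 of the 6 slow genes had a signal over 150 in any tumour sample. With most tumour values under 150, a larger loss of fast isoforms and a brighter start cannot be told apart. The part of the background limit in the smaller gap was not tested, and the gap is given without a test.

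**Figure D3:**
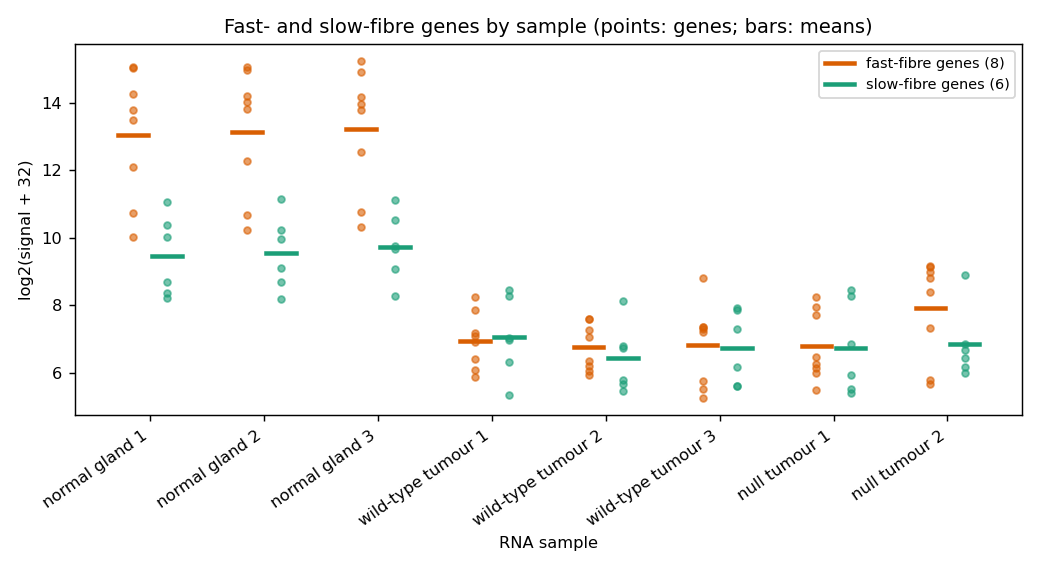
Log2 of signal plus 32 (vertical axis) for 8 fast-fibre genes and 6 slow-fibre genes in each of 8 RNA samples; points are genes and bars their mean. Fast means are about 13 in normal glands and near 7 in 4 tumour samples, with 7.91 in PEA3-null tumour 2, and slow means move from between 9.45 and 9.74 to between 6.42 and 7.06.

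The comparison of tumour genotypes asks whether tumours labelled PEA3-null differ from those with PEA3. For the muscle genes the median log2 difference was 0.05, against 0.00 over all genes. Of 37 members, 1 was higher in PEA3-null tumours and 0 were lower (limma), where 0.162% of all genes were higher and 0.0766% lower. At an unadjusted p under 0.05 there were 7 members, where 11% of all genes were. The one that passed was Tnnc2, which read 52.82, 48.55 and 131.1 in wild-type tumours and 271.1 and 544.0 in PEA3-null tumours. Both PEA3-null samples lay above all wild-type tumours, which were all under 150 (log2 2.01, SE 0.33, limma adjusted p = 0.0403). Its probe set is of a kind that can read related transcripts too, and the other Tnnc2 probe set stayed between 17.7 and 32.95 in all 8 samples, normal glands included. Probe sets of this kind also read Myh7 and Ckm on chip A and Mylpf and Tnni1 on chip C.

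The Tnnc2 call held in 10 of 24 alternative fits, with adjusted p from 0.0126 to 1 over them. Leaving out normal gland 1, 2 or 3 gave an adjusted p of 0.102, 0.0996 or 0.106, and leaving out wild-type tumour 1 or 2 gave 0.133 or 0.106. Without PEA3-null tumour 2 the log2 difference was 1.55 (adjusted p = 0.124), and the 1 member that passed in that fit was Myoz1 (log2 -1.79, limma adjusted p = 0.0128). With only the tumour arrays of chip A, which share a scan day, it was 2.01 with an adjusted p of 0.483.

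The next largest differences did not pass. Csrp3 was at -1.86 (limma adjusted p = 0.451) by its chip B probe set, where genotype, scan day and lot cannot be told apart. Acta1 was at 1.60 (0.388), Tnni1 at 1.22 (0.273), Myh4 at 1.13 (0.523) and Ckmt2 at 1.13 (0.266). Ckmt2 read 30.95, 16.66 and 51.14 in wild-type tumours and 78.91 and 140.5 in PEA3-null tumours, all under 150. Some of these values moved with 1 sample. Without PEA3-null tumour 2, Acta1 was at 0.20 and Myh4 at 0.07. Without PEA3-null tumour 1, Acta1 passed at 3.00 (limma adjusted p = 0.0155), so that 2 members passed in that fit, and Myh4 reached 2.20 without passing. With 1 sample left in the group, that sample is assumed to vary like the other groups.

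With values under 150 set to 150, Tnnc2, Tnni1 and Eno3 were the 3 of 37 genes that read higher in both PEA3-null samples than in all wild-type tumours, where 10.4% of all genes did. Csrp3 and Cox7a1 were the 2 that read lower in both, where 11% of all genes did. Neither share is above that of all genes. Tnni1 is read on chip A here. Its brighter chip C probe set read 471.2 in PEA3-null tumour 1 and 904.7 and 476.1 in wild-type tumours 1 and 2.

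The PEA3-null samples were unlike each other. Only signals over 150 can be ordered, and 25 members had one in at least 1 tumour sample. PEA3-null tumour 2 had the highest signal of the 5 tumour samples for 14 of these 25, where it was highest for 25.5% of all genes. It was highest for 5 of 6 fast and 1 of 3 slow genes among them. PEA3-null tumour 1 was highest for 0 members, where it was highest for 20.2% of all genes. Wild-type tumours 1, 2 and 3 were highest for 4, 2 and 5 members, with 19.4%, 18.7% and 16.1% of all genes.

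For 9 members the normal gland mean was at least 10000, so that a signal over 150 is a small share of it. PEA3-null tumour 2 exceeded 150 for 6 of the 9 and was the highest tumour sample for all 6, at 0.861% to 3.83% of the normal mean. PEA3-null tumour 1 exceeded 150 for 4 of the 9, and each wild-type tumour for 3. Acta1 stood at 2.75% of its normal mean in PEA3-null tumour 2 and at most at 0.599% elsewhere. Myl1 stood at 1.64% against at most 0.837%, and Tnnt3 at 2.21%, with all other tumours under 150. Actn3 and Cox6a2 did not share this order. Actn3 was highest in wild-type tumour 1 at 1.37%, and Cox6a2 in wild-type tumour 3 at 1.65%. By the dimmer Actn3 probe set the tumours stood at 14.9% to 29.5%, highest in wild-type tumour 2. Pygm was under 150 in every tumour.

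**Figure D4:**
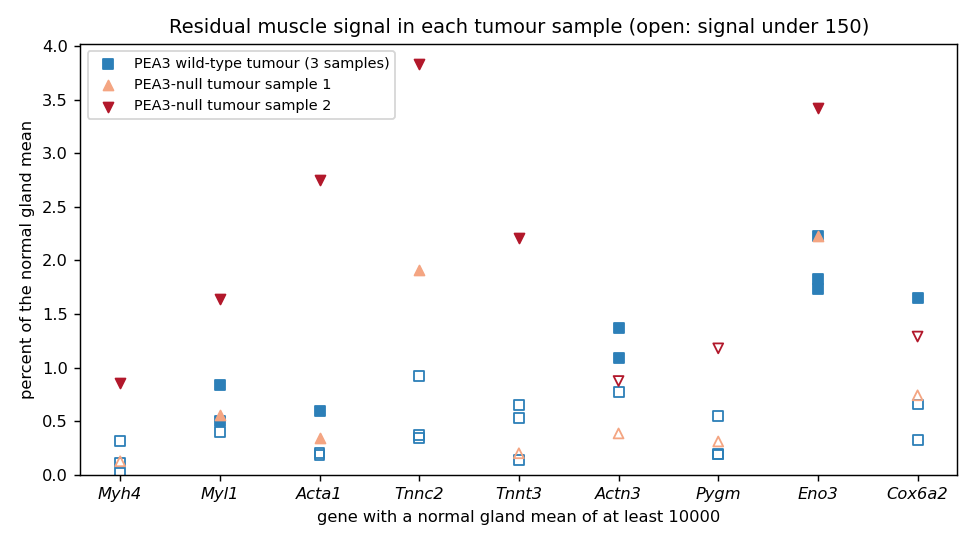
Signal in each of 5 tumour samples as a percent of the normal gland mean (vertical axis, from 0) for the 9 muscle genes whose normal mean was at least 10000. Squares are wild-type tumours and triangles the 2 PEA3-null samples. Open symbols are signals under 150, which have no order. PEA3-null tumour 2 exceeds 150 for 6 of the 9 genes and is highest for those, up to 3.83% for Tnnc2.

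Summed over the 38 genes with a probe set, signal was 270869 to 284465 in normal glands, 5802 to 6860 in wild-type tumours, 5057 in PEA3-null tumour 1 and 10010 in PEA3-null tumour 2. Sums of fat genes were also lower in tumours. The 7 measured white fat genes summed to 53647 to 58292 in normal glands, 1727 to 2107 in wild-type tumours, and 2291 and 2731 in the PEA3-null samples. Adipoq, the fat hormone adiponectin, read 250.2, 409.0 and 272.2 in wild-type tumours and 465.0 and 885.0 in PEA3-null tumours. Without Cox7a1 and Cox8b, which are counted as members, the 5 brown fat genes summed to 4948 to 5251, then 516 to 745, then 652 and 1376. Of these 5, Elovl3 stayed under 150 everywhere. All 7 white fat genes and 1 of 4 tested brown fat genes fell in both genotypes, where 13.8% and 15% of all genes fell. Between the genotypes 0 of these fat genes passed. Ucp1, the uncoupling protein of brown fat, did not pass by its brightest probe set, but another fell from between 1681 and 2173 to at most 54.25 (log2 -4.87 and -4.58, limma adjusted p = 4.53e-07 and 2.22e-06). The part of these tissues in the muscle values was not tested.

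Markers of other muscle types were read beside the skeletal genes. Of 8 heart genes, 4 were tested and 2 fell in both genotypes, Actc1 (log2 -1.64 in wild-type tumours) and Mybpc3 (-1.96). For this and the next list, 13.8% of all genes fell in wild-type and 15% in PEA3-null tumours. The heart genes Myh6, Tnnt2, Tnni3 and Ryr2 did not reach the filter by their brightest probe set and read at most 122.0 in any normal gland. The heart list summed to 3059 to 3384 in normal glands, 1217 to 1990 in wild-type tumours and 1426 and 2034 in PEA3-null tumours, with Actc1 at 2022 to 2217 in normal glands by a probe set that may also read other actins. Of 9 smooth muscle and myoepithelial genes, 4 of 6 tested fell in both genotypes, among them Acta2 (log2 -2.77), Cnn1 (-2.17) and Mylk (-2.07). Their sum was 8457 to 9428 in normal glands, 3405 to 3829 in wild-type tumours and 3318 and 2802 in PEA3-null tumours, and Krt5, Krt14 and Smtn stayed under 150 everywhere by their brightest probe set.

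The tumours carried the epithelial markers that their label implies. All 6 luminal genes rose in wild-type and 5 of 6 in PEA3-null tumours, where 13% and 13.2% of all genes rose. Cldn3 rose most (log2 4.17 and 4.56). The 6 summed to 4996 to 6380 in normal glands, 33723 to 38803 in wild-type tumours and 36423 and 40382 in PEA3-null tumours.

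Genes that work with the sarcomere were also lower in tumours. Of 10 tested genes of muscle calcium handling, 7 fell in wild-type and 8 in PEA3-null tumours, where 13.8% and 15% of all genes fell. Their medians were -3.30 and -3.82. These counts and medians are not alike, since Casq1 and Pvalb are read on chip C in the first and on chip A in the second. On chip A both genes fell in both genotypes. Atp2a1, the calcium pump of fast fibres, read 30910, 38660 and 31990 in normal glands and 243.5, 303.7, 476.4, 344.3 and 507.9 across the tumours in the order used above (log2 -6.55 and -6.23, limma adjusted p = 9.67e-09 and 3.5e-08). Trdn, triadin of the release complex, was at -4.84 and -4.78, and Ryr1, the calcium release channel, at -4.69 and -3.99. No tumour sample reached 150 for Ryr1, which entered the test through the normal glands. Casq1, the calcium store of fast fibres, fell by 5.48 and 5.41 on chip A, but a brighter chip C probe set had the opposite sign (log2 0.65). Casq2 and Sln did not pass in either genotype. The calcium list summed to 4407 in PEA3-null tumour 2, of which 2444 was Pvalb, the calcium buffer parvalbumin, against 2212 to 3258 in wild-type tumours and 2259 in PEA3-null tumour 1.

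Of 7 tested genes of the dystrophin complex and the muscle cell membrane, 5 fell in both genotypes. Over all genes, 13.8% fell in wild-type and 15% in PEA3-null tumours. Cav3, the muscle caveolin, was at log2 -2.29 and -2.31, and Sgca, alpha-sarcoglycan, at -2.18 and -2.28. By the probe sets used, Cav3 and Sgca stayed under 150 in every tumour sample and entered the test through the normal glands. Dysf, which takes part in membrane repair, was at -1.86 and -2.11, and Dag1, dystroglycan, at -1.77 and -2.04. Dmd and Sgcd stayed under 150 everywhere by their brightest probe set. Genes of the myogenic regulators and the neuromuscular junction were mostly not past the threshold. Of 12 tested in wild-type tumours, 3 fell and 1 rose, where 13.8% of all genes fell and 13% rose. Of 11 tested in PEA3-null tumours 3 fell and 2 rose, where 15% of all genes fell and 13.2% rose. Among the transcription factors, Myod1, Myog, Myf6 and Pax3 did not pass in either genotype. Those that fell were Mef2c (log2 -2.75 and -2.63), Mef2a (-0.84 and -1.20) and Mef2d (-0.66 and -1.15), which are also made outside muscle. Rapsn, which clusters acetylcholine receptors, rose by 0.63 and 0.92. The Mef2c probe sets ranged from -2.75 to 1.18 in wild-type tumours.

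Non-muscle or widely shared relatives of the members moved in both directions. Of 21 tested in wild-type tumours, 7 fell and 4 rose (median -0.07), where 13.8% of all genes fell and 13% rose. Of 20 in PEA3-null tumours 6 fell and 5 rose (median 0.01), where 15% of all genes fell and 13.2% rose. Ckmt1, the mitochondrial creatine kinase of non-muscle tissue, read 90.78 to 137.6 in normal glands, 428.9 to 585.3 in wild-type tumours and 1048 and 796.1 in PEA3-null tumours, while Ckmt2 fell. Actn4, a non-muscle alpha-actinin, read 1117 to 1286 in normal glands and between 3755 and 4415 in the tumours, while Actn3 fell. Tpm1, a tropomyosin made in muscle and in other cells, rose by 1.43 and 1.41 (log2) by the probe set taken, but a chip C probe set fell by 6.14 in wild-type tumours, from 6740 to 7611 in normal glands to at most 119.5. Pygl, the liver glycogen phosphorylase, fell by 2.38 and 2.67 in the same direction as Pygm. Ampd3, an AMP deaminase of other tissues, fell by 1.72 in wild-type tumours. None of these relatives passed between the tumour genotypes (0 of 20, limma, with 2 at an unadjusted p under 0.05).

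Over all 56 tested member probe sets, 43 were lower and 0 higher in wild-type tumours. Of all 28242 probe sets tested there, 2905 were lower and 2971 higher. Among 13 genes with several tested probe sets in that comparison, 5 had every probe set fall, and 6 (Ckm, Csrp3, Ldb3, Myh7, Tnni1 and Ttn) had probe sets of both signs. In PEA3-null tumours 41 of 51 member probe sets were lower and 0 higher, where 2389 of all 19275 were lower and 2361 higher. Ldb3 and Ttn had both signs in that comparison. The Ldb3 probe set of opposite sign read 55.33 to 192.7 in normal glands.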

How the data were processed

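The deposited probe set values are linear intensities that the authors made with MAS5, per the submitters' processing notes, whose version and settings are not given in the sources used here. Scan day and chip lot were read from the deposited text of instrument settings, which holds no measurement.

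For this work, the 198 control probe sets were set aside and the signals of every array were brought to 500 as their 2% trimmed mean. Values are log2 of signal plus 32, which understates folds of dim probe sets. The filter asked for 150 or more on 2 arrays of the chip type. The software was R 4.3.3 with limma 3.58.1, using lmFit and eBayes with a variance trend, and each chip type had 1 fit of all 3 groups. P-values are two-sided and were adjusted by the Benjamini-Hochberg method across all chips used, with 0.05 as threshold. Wild-type tumours were set against normal glands on chips A, B and C, and PEA3-null tumours against either on A and B, since only 1 PEA3-null sample was on chip C. Precision is limited by the small number of arrays.

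The members, the other lists, and the rule for named genes were chosen with earlier results of these data known. That rule names the 5 genes of each role with the highest signal in normal gland, all fast and slow genes, every member past the threshold between genotypes, the 6 largest differences there, every member that did not pass against normal gland, genes whose probe sets differ in sign, and the 4 genes of each other list with the largest change. Tpm1, Cox6a1, Cox7a2, Casq2, Sln and the heart, smooth muscle, fat and luminal genes lie outside it and were chosen after their values were seen. Gene symbols come from the platform annotation, and all 66 member probe sets matched RefSeq of GRCm38.p6. The 250-base windows come from the same table. The files used here pair no probe set with positions. The fits were tested on simulated data. Replicate numbers did not pair the samples: deviations of same-numbered samples correlated at -0.11 to 0.07. Alternatives concerned the constant, scaling, filter, samples, variance model, block, chip types, scan day and a fold minimum.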

Additional observations from a re-analysis of the deposited data

How the results depend on the processing

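Counts of lower members were 28 to 32 in wild-type and 27 to 33 in PEA3-null tumours under the alternatives, except without normal glands 1 and 2, whose chip A arrays had an aborted wash, where 18 of 26 and 17 of 25 tested members passed. With 1 normal sample left, its spread is taken from the other groups, and fewer genes reach the filter. Replicate numbers as a block gave 31 and 32 lower members and 0 that differed between the genotypes. The 1 member that differed between the genotypes, Tnnc2, also dropped to 0 without a filter, with only the 2 groups compared, without the variance trend, with array weights, without normal glands 1 and 2, with a fold minimum and with only the tumour arrays of chip A. Leaving out 1 sample at a time gave 0 to 2 members, Myoz1 in place of Tnnc2 without PEA3-null tumour 2. The cause was not tested.

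The change of the fast over slow gap from normal gland was -3.47 in wild-type tumours, -3.51 in PEA3-null tumour 1 and -2.49 in PEA3-null tumour 2. Without a filter, which adds Myh2, it was -2.78, -2.81 and -1.82. With the median over the probe sets of a gene it was -2.70, -2.73 and -1.98. Leaving out 1 gene at a time gave -3.94 to -3.04, -4.02 to -3.05 and -2.99 to -2.24. The sign turned for Csrp3 in wild-type tumours with the median over probe sets (-1.14) and without normal gland 3 (-0.37, the lowest of -0.37 to 1.12 when leaving out 1 sample), and in PEA3-null tumours without normal glands 1 and 2 (0.67). It turned for Ttn in wild-type tumours with that median (0.46) and without wild-type tumour 3 (0.015, the highest from -0.27), and in PEA3-null tumours with that median (0.096) and without PEA3-null tumour 1 (0.74, the highest from -1.19). With chip C added, the sign also turned for Tnni1 between the genotypes (-0.46). Of single genes against normal gland, 777 of the alternative values in wild-type and 798 in PEA3-null tumours kept direction and side of the threshold. Signals near 150 limit what can be read in tumours.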
